A study of Mus musculus with 9 samples.

Results

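Aminoacyl-tRNA synthetases are the enzymes that load each amino acid onto its tRNA. Of 36 listed synthetase genes, 20 with a cytosolic enzyme and 16 with a mitochondrial enzyme (symbols ending in 2), 34 were measured among 22180 genes in the hindlimb muscle of young mice, 18 cytosolic and 16 mitochondrial. Members were found by gene symbol (Mars under its newer name Mars1), with 1 probe set per gene that carries a single symbol and has the highest mean over the 9 arrays. Aars and Dars had no probe set of that kind and are left out of the counts. Muscle was taken at postnatal day 2 (P2), day 7 (P7) and day 14 (P14), with 3 arrays at each age. All 9 samples are labelled skeletal muscle, with the strain given as mixed. No genotype or treatment is named, and the sources used here do not say if a replicate stands for a single animal or for pooled animals. The question was how the synthetases change over these 2 weeks of muscle growth, and whether cytosolic and mitochondrial enzymes differ in that.

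Cytosolic synthetases supply the ribosomes that make nearly all muscle proteins, and mitochondrial synthetases supply the separate ribosomes that make a few core subunits of the respiratory chain. Both sets are encoded in the nucleus. Several cytosolic synthetases sit together in the multi-synthetase complex, held by scaffold proteins such as Aimp1. Gars and Kars each give rise to a cytosolic and a mitochondrial form, and mitochondria have no glutamine enzyme of their own: they convert glutamate on its tRNA with the amidotransferase made of Gatb, Gatc and Qrsl1. Amino acid shortage is known to raise several cytosolic synthetases through the transcription factor Atf4.

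Promoter sequences are shown for that reason: sites that match the composite element of Atf4 and C/EBP factors, and the promoters of the 4 members that differed between P14 and P2. The RefSeq table of build GRCm38.p6 holds the 250 bases before and 50 after the start of 25 of the 34 members (11 cytosolic, 14 mitochondrial), and 32851 promoters in all. Cars, Hars, Lars, Nars, Rars, Vars, Wars, Hars2 and Pars2 have no entry in it. The letters TGATGNAA, searched on both strands, occur in 4 members, all cytosolic (Gars, Iars, Tars and Yars). They occur in 4.51% of the 27025 genes with a promoter and in 3.97% of all promoters. The exact form TGATGCAA, which is contained in the first, occurs in Iars, Tars and Yars, in 1.03% of these genes and in 0.895% of promoters. The 30 bases around each match, 5′ to 3′ on the gene's strand with the matched letters in capitals, are as follows.
Iars, chr13:49682126-49682155 (+): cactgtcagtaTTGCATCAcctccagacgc
Tars, chr15:11399655-11399684 (-): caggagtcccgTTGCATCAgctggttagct
Yars, chr4:129189895-129189924 (+): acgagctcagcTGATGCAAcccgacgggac
Gars, chr6:55037960-55037989 (+): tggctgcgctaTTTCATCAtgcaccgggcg
These matches lie at 8 to 15 in Iars, -15 to -8 in Tars, 4 to 11 in Yars and -30 to -23 in Gars, counted in bases from the start. A match is a run of letters and was not tested as a binding site.

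The 250 bases before the start of Eprs, Iars, Lars2 and Sars2 are shown because these genes rose by P14. Capitals mark an E-box (CACGTG, a Myc-type element) in Iars and an ETS element (CCGGAAG, here on the other strand) in Sars2.
Eprs, chr1:185362794-185363043 (+): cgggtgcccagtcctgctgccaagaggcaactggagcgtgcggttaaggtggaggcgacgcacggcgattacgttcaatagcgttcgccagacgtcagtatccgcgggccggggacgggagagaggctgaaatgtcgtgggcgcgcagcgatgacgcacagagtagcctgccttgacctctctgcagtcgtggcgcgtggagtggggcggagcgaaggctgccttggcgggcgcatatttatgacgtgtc
Iars, chr13:49681880-49682129 (+): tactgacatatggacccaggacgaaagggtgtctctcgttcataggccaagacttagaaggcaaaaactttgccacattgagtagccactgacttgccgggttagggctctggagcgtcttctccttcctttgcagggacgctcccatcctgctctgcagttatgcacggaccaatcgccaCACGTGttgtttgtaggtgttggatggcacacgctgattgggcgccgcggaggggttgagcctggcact
Lars2, chr9:123366677-123366926 (+): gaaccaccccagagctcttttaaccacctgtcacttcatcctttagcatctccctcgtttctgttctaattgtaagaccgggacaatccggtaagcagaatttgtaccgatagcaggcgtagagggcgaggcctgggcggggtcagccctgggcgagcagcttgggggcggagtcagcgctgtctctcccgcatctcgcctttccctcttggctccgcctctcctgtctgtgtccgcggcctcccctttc
Sars2, chr7:28741718-28741967 (+): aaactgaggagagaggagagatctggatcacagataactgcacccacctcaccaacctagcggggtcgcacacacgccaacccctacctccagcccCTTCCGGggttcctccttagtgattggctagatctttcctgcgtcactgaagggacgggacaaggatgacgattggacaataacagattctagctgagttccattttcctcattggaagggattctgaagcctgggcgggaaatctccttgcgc
Relative to the start, the Iars E-box lies at -69 to -64 and the Sars2 ETS element at -154 to -148. Among the 25 members the E-box occurs in 4 (Farsb, Iars, Tars and Ears2), beside 8.09% of genes with a promoter and 7.15% of all promoters. The ETS letters occur in 9, 5 of them cytosolic (Farsa, Gars, Kars, Mars1 and Sars) and 4 mitochondrial (Cars2, Mars2, Rars2 and Sars2). They occur in 9.93% of genes with a promoter and in 8.86% of all promoters. The Nrf1 element occurs in 5, namely Farsb, Kars, Tars, Iars2 and Mars2 (5.19% of genes with a promoter and 4.60% of all promoters). All searches covered both strands and the whole window, and the promoters of Eprs and Lars2 hold none of these letters.

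All values are deposited log2 intensities, so a difference of 1 is a doubling. Levels of different probe sets were not compared as amounts of RNA. The array medians over all genes lay between 3.60 and 3.69. The 95th percentile of 1432 smell, taste and vomeronasal receptor genes, most of which belong to sensory cells, was 3.23 and stands for background. All 18 cytosolic members were above it on 9 of 9 arrays, as were 14 of the 16 mitochondrial ones. Pars2 was above it on 8 arrays and Wars2 on 7, with a Wars2 mean of 3.22 at P14. Over the 34 members the median standard deviation (SD) within an age was 0.21 for P2, 0.14 for P7 and 0.12 for P14, against 0.25, 0.20 and 0.16 over all genes. P2 replicate 2 was the lowest P2 array for 23 of the 34 members (67.6%), 15 cytosolic and 8 mitochondrial, against 37.9% of all genes and 44.9% of genes above background. For P7 minus P2 and P14 minus P2, the medians and the positive and called counts of both classes are therefore also given without it. The medians and counts of the interval difference, the complex and the pairs are given only with it. Skeletal muscle markers were above background for 9 of 9 genes at each age.

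**Figure D1:**
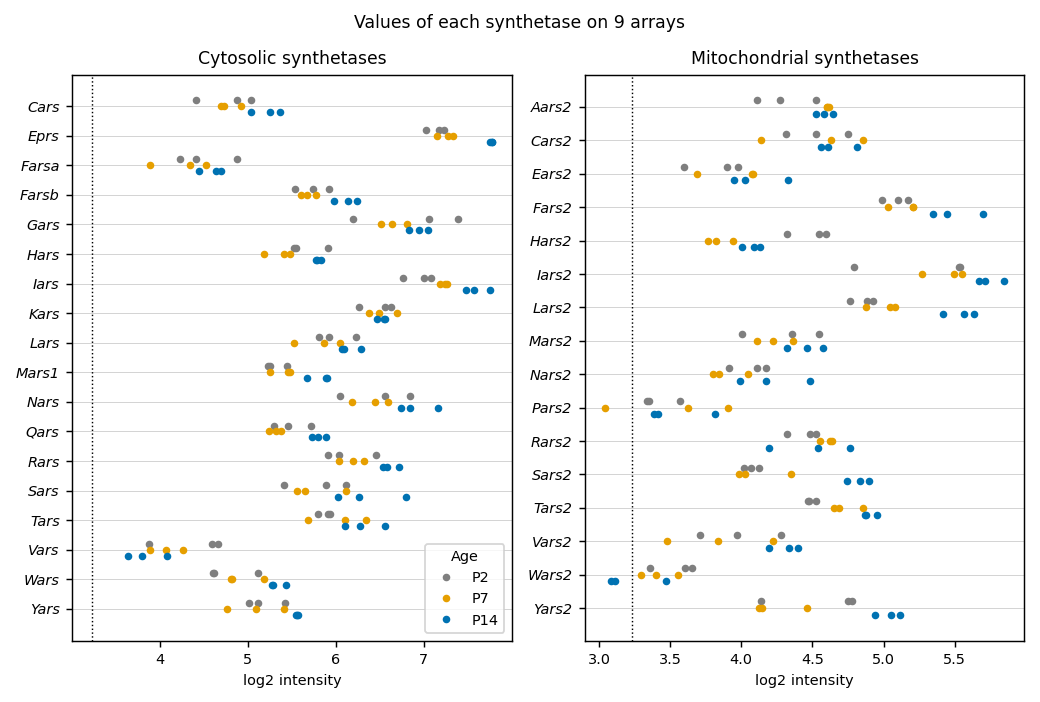
Log2 intensity of the 18 cytosolic (left) and 16 mitochondrial (right) synthetases on each of the 9 arrays, 1 point per array, coloured by age; the dotted line is the background level of 3.23. The 3 P14 points of Eprs, Iars, Lars2 and Sars2 lie above all their P2 and P7 points.

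Between P2 and P7 no synthetase passed the test. Limma called 0 of 18 cytosolic and 0 of 16 mitochondrial members at an adjusted p under 0.05, where 0.329% of all genes were called. At an unadjusted p under 0.05 there were 0 cytosolic members and 1 mitochondrial member, against 12.8% of all genes. The median log2 change was -0.04 over the cytosolic members (range -0.30 to 0.28) and 0.06 over the mitochondrial members (range -0.65 to 0.31), beside -0.006 over all genes. The change was positive in 8 of 18 cytosolic and 10 of 16 mitochondrial members, against 49.2% of all genes. All P7 arrays lay above all P2 arrays for 1 cytosolic and 3 mitochondrial members, against 7.30% of all genes, and below them for 1 of each, against 7.90%. Without P2 replicate 2 the medians were -0.18 cytosolic and 0.030 mitochondrial, with 6 of 18 and 10 of 16 positive and 0 called in both classes. The sign of the cytosolic median rested on single arrays of both ages: it was positive without P2 replicate 1 (0.025), P2 replicate 3 (0.11), P7 replicate 2 (0.0026) or P7 replicate 3 (0.041).

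Hars2, the mitochondrial histidine enzyme, had the lowest unadjusted p of the synthetases in this interval. Its values were 4.60, 4.32 and 4.55 at P2, 3.82, 3.94 and 3.77 at P7, and 4.09, 4.004 and 4.13 at P14. The 3 P7 arrays and the 3 P14 arrays all lie below the 3 P2 arrays. The P7 minus P2 difference was -0.65 ± 0.16 (SE, n = 3 arrays per age), with limma's adjusted p = 0.101, and it was not called under any of the 17 alternative settings.

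From P7 to P14 most synthetases had a positive change, but only 2 passed the test, the mitochondrial serine enzyme Sars2 and the mitochondrial tyrosine enzyme Yars2. Limma called 0 of 18 cytosolic and 2 of 16 mitochondrial members, all higher at P14, where 2.43% of all genes were called, 1.72% as higher, and 3.64% of genes above background. Of the cytosolic members 17 of 18 had a positive change and of the mitochondrial ones 13 of 16. The share was 52.3% of all genes and 60.4% of genes above background. The median log2 change was 0.43 (1.34-fold) over the cytosolic and 0.23 (1.17-fold) over the mitochondrial members, against 0.015 over all genes and 0.077 over genes above background. At an unadjusted p under 0.05, 11 cytosolic and 4 mitochondrial members were higher and 0 lower. In either direction it was 14.6% of all genes and 19.5% of genes above background. All 3 P14 arrays lay above all 3 P7 arrays for 13 cytosolic and 7 mitochondrial members, against 14.8% of all genes and 21.3% of genes above background. They lay below them for 0 members, against 9.13% of all genes. No test was made of either list as a whole. The classes differed in signal level, with P14 means of 3.84 (Vars) to 7.77 (Eprs) for cytosolic members. For mitochondrial members they were 3.22 (Wars2) to 5.74 (Iars2). The part of signal level in the gap between the class medians was not tested.

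Sars2 had values of 4.07, 4.12 and 4.02 at P2, 4.35, 3.98 and 4.03 at P7, and 4.74, 4.84 and 4.90 at P14. All P14 arrays lie above every P2 and P7 array. It was 1.63-fold higher at P14 than at P7 (log2 0.71 ± 0.16, SE; adjusted p = 0.0367). This call held in 10 of 17 alternatives. It ended, among others, under cyclic loess scaling, or on leaving out P7 replicate 2, P7 replicate 3 or a P14 array (highest adjusted p = 0.154, with P14 replicate 3 left out).

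Yars2 had values of 4.78, 4.14 and 4.75 at P2, 4.13, 4.46 and 4.15 at P7, and 5.05, 5.11 and 4.94 at P14. Its P14 arrays lie above all others, and P2 replicate 2 lies among the P7 arrays. The P14 level was 1.73-fold that of P7 (log2 0.79 ± 0.20, SE; adjusted p = 0.0497), close to the threshold. Leaving out any P7 or P14 array ended this call (highest adjusted p = 0.188, with P14 replicate 2 left out), as did centring or cyclic loess, and it held in 8 of 17 alternatives in all. Against P2 the difference was 0.48 ± 0.20 and was not called (adjusted p = 0.144).

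**Figure D2:**
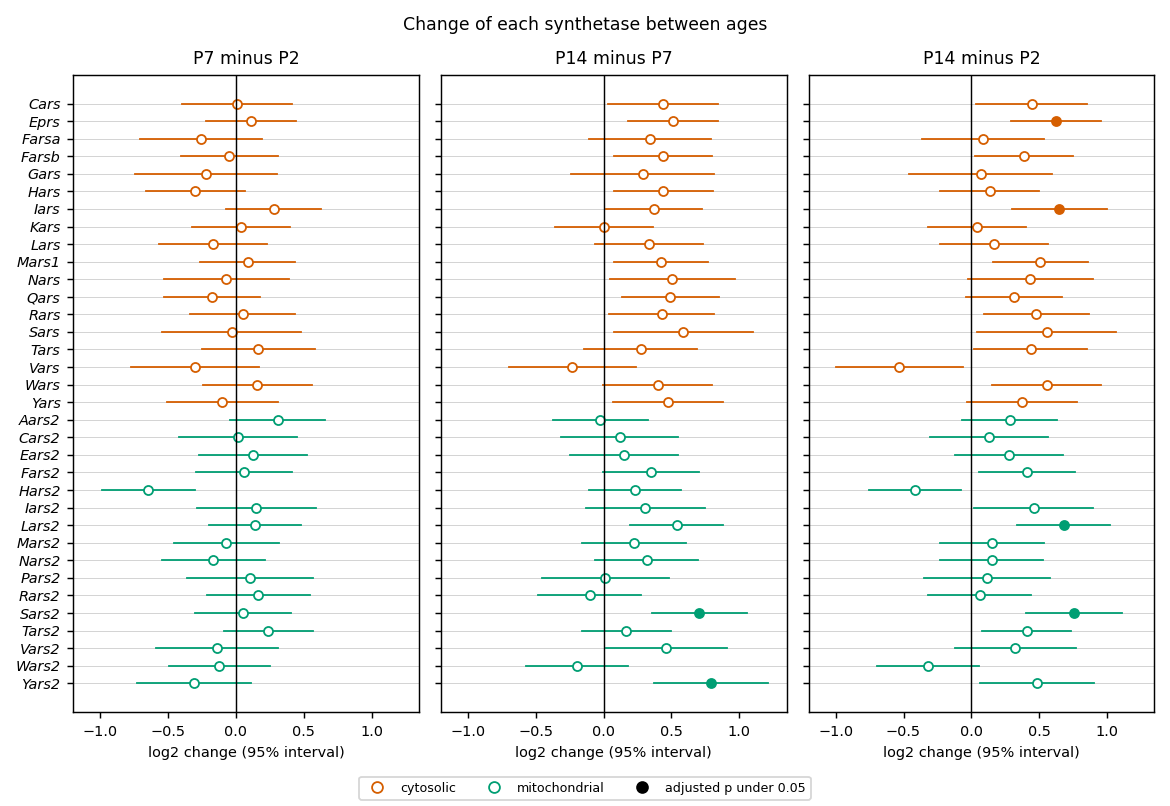
Log2 change of each synthetase between the ages named above each panel, later age minus earlier age, with its 95% interval from the limma fit; filled points have an adjusted p under 0.05. Filled points are absent for P7 minus P2, are Sars2 and Yars2 for P14 minus P7, and are Eprs, Iars, Lars2 and Sars2 for P14 minus P2.

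Over the 12 days from P2 to P14, 4 synthetases rose and 0 fell by limma's test, where 6.63% of all genes rose and 4.40% fell. These were the glutamate and proline enzyme Eprs, the isoleucine enzyme Iars, the mitochondrial leucine enzyme Lars2 and Sars2. Called were 2 of 18 cytosolic and 2 of 16 mitochondrial members, 11.8% of the 34, which is near the 11.0% of all genes and below the 16.3% of genes above background. The median log2 change was 0.41 (1.33-fold) over the cytosolic and 0.28 (1.21-fold) over the mitochondrial members, beside 0.013 over all genes and 0.073 over genes above background. Changes were positive in 17 of 18 cytosolic and 14 of 16 mitochondrial members, beside 51.8% of all genes and 57.8% of genes above background. All P14 arrays lay above all P2 arrays for 10 cytosolic and 6 mitochondrial members, against 16.2% of all genes and 22.6% of genes above background. They lay below them for 0 cytosolic members and 1 mitochondrial member, against 12.6% and 14.3%. At an unadjusted p under 0.05, 9 cytosolic members were higher and 1 lower, and 6 mitochondrial members were higher and 1 lower. In either direction it was 24.3% of all genes and 32.6% of genes above background. Without P2 replicate 2 the medians were 0.29 cytosolic and 0.20 mitochondrial, with 14 of 18 cytosolic and 13 of 16 mitochondrial changes positive, 3 cytosolic members called (Eprs and Iars higher, Vars lower) and 2 mitochondrial members called (Lars2 and Sars2, higher).

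Eprs, which charges both glutamate and proline tRNAs, had values of 7.23, 7.03 and 7.17 at P2, 7.28, 7.33 and 7.15 at P7, and 7.77, 7.77 and 7.75 at P14. The P14 arrays lie within 0.02 of each other and above the other 6. It was 1.54-fold higher at P14 than at P2 (log2 0.62 ± 0.16, SE; 95% interval 0.29 to 0.96; adjusted p = 0.0180). The call ended under cyclic loess and without any 1 P14 array (adjusted p up to 0.0688). The P14 minus P7 difference of 0.51 ± 0.16 was not called (adjusted p = 0.110).

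Iars had values of 7.00, 6.77 and 7.08 at P2, 7.26, 7.18 and 7.25 at P7, and 7.48, 7.75 and 7.57 at P14. The ages do not overlap, and each is above the one before. It was 1.57-fold higher at P14 than at P2 (log2 0.65 ± 0.16, SE; adjusted p = 0.0194), with changes of 0.28 ± 0.16 from P2 to P7 (adjusted p = 0.510) and 0.37 ± 0.16 from P7 to P14 (adjusted p = 0.309), neither called. The P14 minus P2 call ended under cyclic loess and on leaving out P14 replicate 2 (adjusted p = 0.101) or 3 (0.0612).

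Lars2 had values of 4.77, 4.88 and 4.92 at P2, 5.08, 5.05 and 4.88 at P7, and 5.42, 5.56 and 5.64 at P14. Its P14 arrays lie above the other 6, while P2 and P7 overlap. The gene was 1.60-fold higher at P14 than at P2 (log2 0.68 ± 0.16, SE; adjusted p = 0.0126), a call that ended without P14 replicate 2 or 3 (adjusted p up to 0.0633). For P14 minus P7 it had 0.54 ± 0.16 (adjusted p = 0.101). Sars2 was 1.69-fold higher at P14 than at P2 (log2 0.76 ± 0.16; adjusted p = 0.00833). That call held in 17 of 17 alternative settings, with an adjusted p up to 0.0430.

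The 7 measured synthetases of the multi-synthetase complex (Eprs, Iars, Kars, Lars, Mars1, Qars and Rars) had a median change of 0.48 from P2 to P14, with 7 of 7 positive (51.8% of all genes) and 2 called (11.0% of all genes). Their median was 0.42 from P7 to P14, where all P14 arrays lay above all P7 arrays for 6 of 7 (14.8% of all genes). Limma called 0 of 7 there, with 5 at an unadjusted p under 0.05 (14.6% of all genes). The methionine enzyme Mars1 had 5.25, 5.24 and 5.44 at P2, 5.46, 5.26 and 5.48 at P7, and 5.67, 5.89 and 5.90 at P14. The P14 arrays lie above all others, and the P14 minus P2 difference was 0.51 ± 0.16 (adjusted p = 0.0604), past the threshold only under limma-trend or with dim genes left out. The arginine enzyme Rars had 0.48 ± 0.18 (adjusted p = 0.113) and was called without P2 replicate 3 (log2 0.64, adjusted p = 0.0341). The scaffold proteins Aimp1 (0.49 ± 0.17, adjusted p = 0.0886) and Eef1e1 (0.52 ± 0.22, adjusted p = 0.165) were not called for P14 minus P2. Aimp2 was not measured. Kars, the lysine enzyme that works in the cytosol and mitochondria, had a P14 minus P2 change of 0.04 ± 0.17 (95% interval -0.32 to 0.40). Gars, the glycine enzyme that also serves both, had 0.07 ± 0.25 (95% interval -0.46 to 0.59). Gars had 7.38, 6.19 and 7.06 at P2 and 7.05, 6.84 and 6.95 at P14, and P2 replicate 2 lies below every other array. Kars had 6.56, 6.26 and 6.63 at P2 and 6.47, 6.56 and 6.54 at P14. The positive P14 minus P2 signs of Kars and Gars thus rest on P2 replicate 2.

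Outside the complex, the tryptophan enzyme Wars had 4.62, 4.61 and 5.12 at P2, 5.18, 4.82 and 4.81 at P7, and 5.29, 5.28 and 5.44 at P14. The P14 arrays lie above all others, with a P14 minus P2 difference of 0.55 ± 0.19 (adjusted p = 0.0771). It was called without P2 replicate 3 (log2 0.72, adjusted p = 0.0227) or with dim genes left out. The other cytosolic members were not called between any 2 ages.

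The valine enzyme Vars was the 1 cytosolic member with a negative change from P7 to P14 and from P2 to P14. Its values were 4.66, 3.87 and 4.60 at P2, 4.26, 3.89 and 4.07 at P7, and 3.80, 3.64 and 4.09 at P14, so the ages overlap and P2 replicate 2 is well below the other P2 arrays. The P14 minus P2 difference was -0.53 ± 0.22 (adjusted p = 0.147). Without P2 replicate 2 it was -0.78 and was called (adjusted p = 0.0187). Among mitochondrial members Hars2 (-0.41 ± 0.16, adjusted p = 0.120) and Wars2 (-0.32 ± 0.18, adjusted p = 0.293) had negative P14 minus P2 changes. Wars2 had 3.61, 3.36 and 3.66 at P2, 3.56, 3.297 and 3.40 at P7, and 3.09, 3.11 and 3.47 at P14, near background throughout.

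The intervals of 5 and 7 days were set against each other as P14 minus P7 less P7 minus P2. Limma called 0 of 34 members, against 0.194% of all genes (0.0361% higher and 0.158% lower). At an unadjusted p under 0.05 there were 2 cytosolic (Hars and Qars) and 3 mitochondrial members (Hars2, Sars2 and Yars2), against 8.12% of all genes. It was positive in 17 of 18 cytosolic and 11 of 16 mitochondrial members, against 54.1% of all genes and 60.7% of genes above background. The median of that difference was 0.46 over the cytosolic and 0.22 over the mitochondrial members, beside 0.044 over all genes and 0.11 over genes above background. Both intervals use the P7 arrays, so the changes of the 2 intervals are not independent.

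Each array's deviation from a gene's own mean over the 9 arrays was also summarised by its median. The cytosolic medians were -0.06, -0.27 and 0.11 at P2, 0.00058, -0.19 and -0.22 at P7, and 0.23, 0.31 and 0.25 at P14. The mitochondrial medians were -0.12, -0.17 and 0.040 at P2, -0.0055, -0.091 and -0.11 at P7, and 0.13, 0.14 and 0.25 at P14. For both classes the 3 P14 arrays lie above all 6 earlier arrays, and the P2 and P7 arrays overlap. The medians of all genes stayed between -0.029 and 0.017. Those of genes above background were -0.027, -0.087 and 0.066 at P2, 0.0079, -0.058 and -0.049 at P7, and 0.042, 0.045 and 0.065 at P14. Mitochondrial ribosomal proteins, 71 of which were measured, had -0.32, -0.25 and -0.061 at P2, -0.10, -0.031 and -0.099 at P7, and 0.27, 0.29 and 0.25 at P14.

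**Figure D3:**
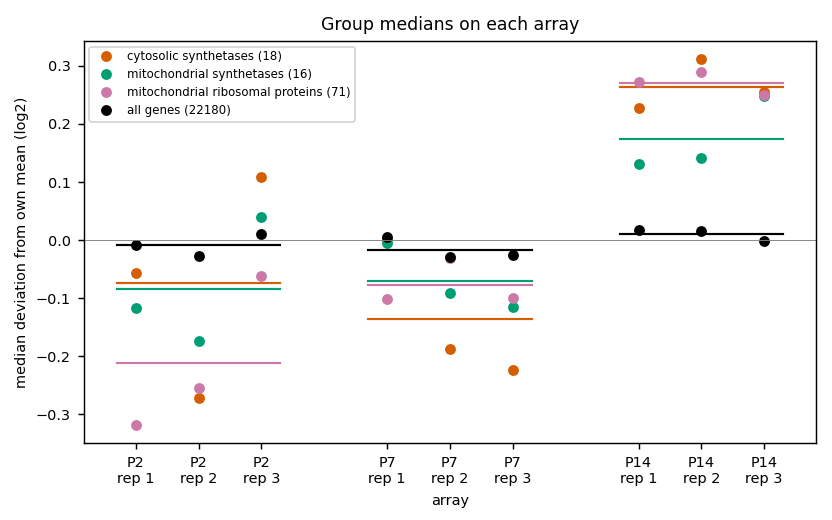
Median over the genes of a group of each array's deviation from the gene's mean over 9 arrays (log2), for cytosolic synthetases, mitochondrial synthetases, mitochondrial ribosomal proteins and all genes; lines are the means of an age's 3 arrays. The P14 points of both synthetase classes lie between 0.13 and 0.31, above every P2 and P7 point.

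Cytosolic and mitochondrial enzymes of the same amino acid formed 15 pairs (Eprs enters with both Ears2 and Pars2). The cytosolic enzyme had the more positive change in 10 of 15 pairs from P7 to P14, with a median difference, cytosolic minus mitochondrial, of 0.19. From P2 to P14 it was also 10 of 15, with a median difference of 0.28, and from P2 to P7 it was 7 of 15, with a median of -0.005. The P2 to P14 differences ran from -0.86 for Vars and Vars2 to 0.87 for Wars and Wars2. Of these genes Wars2 was near background, and Vars had P2 replicate 2 well below its other P2 arrays. For comparison, the SD within each age was taken of the difference between the 2 enzymes of a pair on the same array. The median of these SDs was 0.25 over P2 and P7, 0.19 over P7 and P14 and 0.24 over P2 and P14. In 5 pairs the mitochondrial enzyme had the more positive P14 minus P2 change, Farsa with Fars2, Lars with Lars2, Sars with Sars2, Vars with Vars2 and Yars with Yars2. The pairs were not tested as a set.

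**Figure D4:**
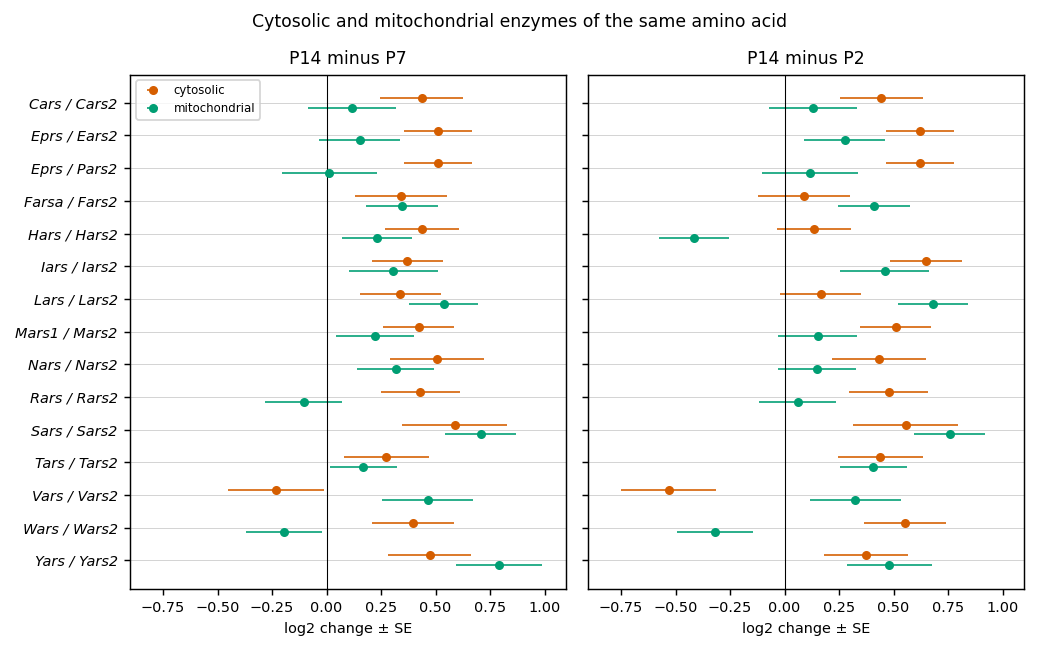
Log2 change ± SE of the cytosolic and the mitochondrial enzyme of each amino acid, P14 minus P7 (left) and P14 minus P2 (right). The widest gaps from P2 to P14 are those of Vars and Vars2 (-0.86, cytosolic minus mitochondrial) and Wars and Wars2 (0.87). Wars2 was near background, and the P2 arrays of Vars spread widely.

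Other genes of translation and amino acid supply were set beside the synthetases, all as P14 minus P2 unless stated. Eef1a1 and Eef1a2 carry charged tRNAs to the ribosome. Among 9 genes of cytosolic elongation 1 rose and 1 fell, beside 6.63% of all genes that rose and 4.40% that fell. Eef1a2, the form of adult muscle and nerve, rose 4.14-fold (log2 2.05 ± 0.27; adjusted p = 0.00022) and Eef1a1, the form of most other cells, was 2.11-fold lower (log2 -1.08 ± 0.16; adjusted p = 0.000589). Eef1a2 had 6.73, 7.45 and 8.02 at P2, 8.82, 8.32 and 8.99 at P7, and 9.50, 9.45 and 9.40 at P14, without overlap between ages. The other 7 were not called, and the list's median was 0.05.

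Of 14 measured mitochondrial translation factors 4 rose and 0 fell, with a median of 0.34, beside 6.63% of all genes that rose and 4.40% that fell. Of genes above background 16.3% were called in either direction. Gatc and Qrsl1, parts of the amidotransferase, were 1.94-fold (log2 0.95 ± 0.20; adjusted p = 0.00569) and 1.84-fold higher (log2 0.88 ± 0.19; adjusted p = 0.00873), and Gatb, the remaining subunit, had 0.30 ± 0.19 (adjusted p = 0.362). Gatc had 6.94, 6.63 and 7.12 at P2, 7.10, 7.24 and 6.96 at P7, and 7.68, 8.20 and 7.69 at P14. Gfm1 and Gfm2, mitochondrial elongation and recycling factors, were 1.71-fold and 1.64-fold higher (adjusted p = 0.0142 and 0.0122). From P7 to P14 the list had 14 of 14 positive changes (52.3% of all genes) and a median of 0.35. Gfm1 alone was called there, beside 2.43% of all genes (2.00-fold, adjusted p = 0.00927, up to 0.0687 without P14 replicate 2). Of these calls only Gatc's P14 minus P2 call held when any 1 array was left out; Qrsl1 lost its own without P14 replicate 1 (adjusted p = 0.0558), Gfm1 without P14 replicate 2 or 3 (up to 0.0732) and Gfm2 without P2 replicate 1 or P14 replicate 1 (up to 0.0667). Among 11 genes of mitochondrial tRNA processing and modification 0 were called (11.0% of all genes), with a median of 0.21. At an unadjusted p under 0.05 there was 1, against 24.3% of all genes. Of 71 mitochondrial ribosomal proteins 21 rose (29.6%; median 0.50), and of 89 respiratory chain and ATP synthase subunits 53 rose (59.6%; median 0.72), beside 6.63% of all genes.

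The list of amino acid response genes under Atf4 had 22 measured members, 3 of which rose and 3 fell, with a median of 0.11. That is 27.3% called, beside 11.0% of all genes (6.63% higher and 4.40% lower). Higher were Chac1, which breaks down glutathione (2.43-fold, log2 1.28 ± 0.22; adjusted p = 0.00151), and the C/EBP factor Cebpb (2.05-fold, log2 1.04 ± 0.18; adjusted p = 0.00218). Lower were asparagine synthetase Asns, a usual readout of Atf4 (2.23-fold lower, log2 -1.16 ± 0.24; adjusted p = 0.00597), and Psat1 of serine synthesis (1.87-fold lower, log2 -0.90 ± 0.19; adjusted p = 0.00641). Asns had 5.48, 4.54 and 4.99 at P2, 4.33, 3.78 and 4.23 at P7, and 3.59, 4.08 and 3.86 at P14, so its P14 arrays lie below all P2 arrays. The other 2, named after their values were seen, were Ddit4 (0.79 ± 0.21, higher) and Phgdh (-0.97 ± 0.28, lower, with its P14 mean below background). From P7 to P14 Chac1 was 2.15-fold (adjusted p = 0.0137) and Cebpb 1.86-fold higher (adjusted p = 0.0182), and each lost this call when some single arrays were left out (highest adjusted p = 0.0814 for Chac1 with P14 replicate 1 left out and 0.116 for Cebpb with P14 replicate 2 left out). Atf4 itself had 0.29 ± 0.18 (adjusted p = 0.348). The 4 members whose promoters match the composite element had P14 minus P2 changes of 0.65 (Iars), 0.44 (Tars), 0.37 (Yars) and 0.07 (Gars), of which only that of Iars was called. The positive sign of Gars rests on P2 replicate 2.

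Of 18 amino acid transporters 2 were called (11.1%, beside 11.0% of all genes). Slc38a1, a glutamine carrier, fell (2.69-fold lower, log2 -1.43 ± 0.23; adjusted p = 0.00096), and the neutral amino acid carrier Slc43a2 rose (log2 0.70 ± 0.21; adjusted p = 0.0463; lost on leaving out P2 replicate 1, P2 replicate 2, P7 replicate 2 or a P14 array, with array weights or in the fit of 2 ages, with 0.157 at most; held in 8 of 17 alternatives). From P7 to P14 Slc7a8, another neutral amino acid carrier, rose (log2 1.15 ± 0.28; adjusted p = 0.0486; lost on leaving out P2 replicate 1 or a P7 or P14 array, under cyclic loess or with the mean of all probe sets, with 0.182 at most; held in 8 of 17 alternatives). Of 9 genes on the list of Myc and growth control, Myc was called higher (log2 0.69 ± 0.19; adjusted p = 0.0264), a call that ended on leaving out P2 replicate 3, P14 replicate 1 or P14 replicate 3 (highest adjusted p = 0.124) and under cyclic loess.

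**Figure D5:**
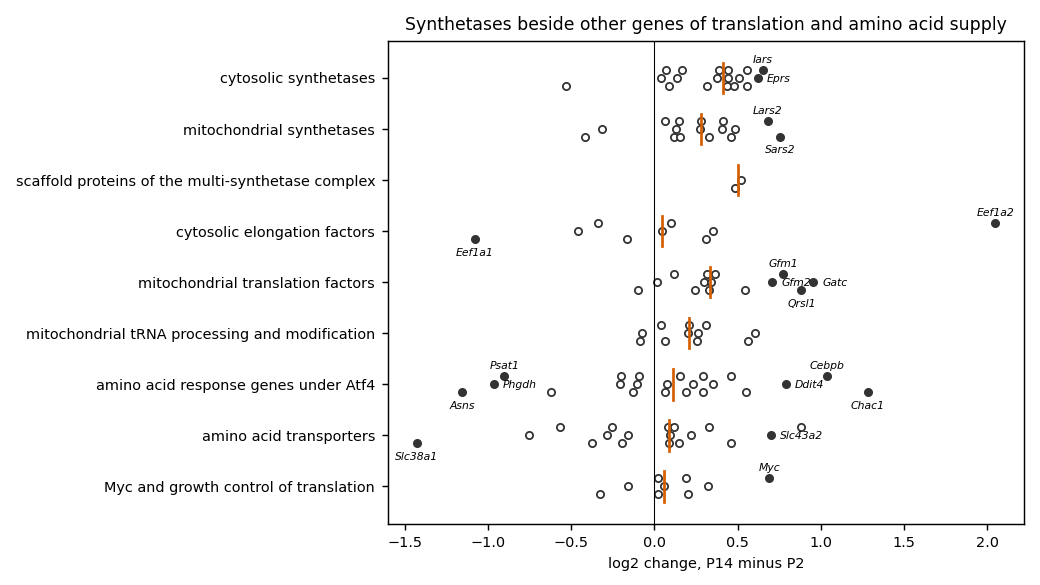
Log2 change, P14 minus P2, of each measured gene of the synthetase classes and of other lists for translation and amino acid supply; filled points have an adjusted p under 0.05 and are named, and vertical bars are list medians. The medians are 0.41 for cytosolic and 0.28 for mitochondrial synthetases and 0.11 for the amino acid response genes.

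Markers of several cell types differed between the ages. The summed intensity of 9 skeletal muscle markers lay between 11271 and 12541.7 for P2, between 12684 and 14246.6 for P7 and between 16089.9 and 16989.9 for P14. The 11 measured cell division markers summed to 348 to 606 for P2, 347 to 372 for P7 and 195 to 227 for P14. Their P14 minus P2 change was positive in 0 of 11, against 51.8% of all genes, and 10 were called lower, against 4.40%. The 7 endothelial markers had array medians, as deviations from each gene's mean, of -0.44, -0.36 and 0.15 at P2, 0.21, -0.18 and -0.089 at P7, and 0.26, 0.19 and 0.37 at P14. Their median P14 minus P2 change was 0.43, with 6 of 7 positive (51.8% of all genes). Of these 7 markers 0 were called (11.0% of all genes) and 4 had an unadjusted p under 0.05 (24.3% of all genes). Median P14 minus P2 changes were -0.26 for 7 fibroblast, -0.37 for 7 macrophage and -0.57 for 3 measured erythroid markers. Positive were 3 of 7 fibroblast (range -0.73 to 0.56), 1 of 7 macrophage and 0 of 3 erythroid markers, against 51.8% of all genes. Called lower were 1, 1 and 0 of them, against 4.40% of all genes, and 0 were called higher. Neutrophil precursor markers had mean levels above background for 6 of 8 genes at P2 and at P7 and 0 of 8 at P14. Their summed intensity was 57.1 to 230.5 over the P2 arrays, 82.1 to 117.0 over the P7 arrays and 49.7 to 57.1 over the P14 arrays. Their array medians were 1.51, -0.50 and 0.82 at P2, so P2 replicate 2 lies apart from the other P2 arrays and within the P14 range of -0.85 to -0.48. The part of these markers in the synthetase changes was not tested, and in whole muscle fewer cells of a type and less RNA per cell cannot be told apart.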

How the data were processed

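Expression was measured on arrays of hindlimb muscle RNA from 9 samples, prepared with Trizol and labelled from 6 ug, per the labels' protocols. The deposited table holds log2 intensities for 41345 probe sets; the authors' processing is named only as RMA and Partek, without versions, per the submitters' processing notes. RMA gives base 2, and the table itself does not name the base. The sources used here name no genome build for the probe sets. A probe table lists 25335 of them (1 symbol for 23521, several for 1814), leaving 16010 unnamed here, and 23328 matched RefSeq by Entrez number. No filter on dim values was applied to the resulting 22180 genes.

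A limma 3.58.1 model (R 4.3.3) gave each age its own mean, used all 9 arrays and moderated variances by empirical Bayes. Two-sided p-values were adjusted over all genes by the method of Benjamini and Hochberg and called under 0.05. The fit was tested on simulated data only for recovering the mean size of seeded changes, with noise independent between arrays and genes. These p-values reflect only how far samples of the same age differ, which may be partly technical. That spread was pooled over all ages, so P2, with the largest median SD, also enters P14 minus P7. Precision is limited by the number of arrays. The members and lists were chosen with earlier results of these data known, so no list was tested. Named genes are all measured synthetases and, of each other list, up to 4 called genes per comparison by smallest adjusted p, with Atf4, Asns, Myc and the scaffold genes always named. The 17 alternatives covered the probe set rule, scaling, dim genes, array weights, limma-trend, fits of 2 ages, a replicate block and each array left out. Tables and figures were made with Python 3.11.15, pandas 2.3.3 and matplotlib 3.10.9.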

Additional observations from a re-analysis of the deposited data

How the results depend on the processing

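Over 17 alternatives no called result changed direction. Among cytosolic members called from P7 to P14 (0 as reported), array weights and limma-trend each gave 1. From P2 to P14 (2 as reported) cyclic loess gave 0 and leaving out dim genes gave 4. Mitochondrial calls from P7 to P14 (2 as reported) were 1 with arrays centred on their medians, 0 with cyclic loess and 0 with the replicate block (adjusted p = 0.0618 for Sars2 and 0.0820 for Yars2). The block also ended the P14 minus P2 call of Slc43a2 (adjusted p = 0.0570). Under cyclic loess the P14 minus P7 medians were 0.28 cytosolic and 0.14 mitochondrial, against 0.43 and 0.23 as reported. With single arrays left out, cytosolic calls ranged from 0 to 4 (P14 minus P2) and mitochondrial calls from 0 to 2 (P14 minus P7) and 1 to 2 (P14 minus P2), and stayed at 0 for the other comparisons. The cytosolic medians ranged from -0.18 to 0.11 (P7 minus P2), 0.35 to 0.48 (P14 minus P7) and 0.29 to 0.44 (P14 minus P2), and the mitochondrial ones from 0.0034 to 0.096, 0.19 to 0.27 and 0.20 to 0.31. The causes were not tested. Same-numbered samples had correlations of -0.03 to 0.06 in their deviations from the age means, against -0.08 to 0.11 for different numbers. The replicate block called 458 genes of all for P14 minus P7, against 538. These values show no pairing by replicate number but cannot exclude it. Over all genes the alternatives called 11 to 206 for P7 minus P2 (73 as reported), 214 to 1221 for P14 minus P7 (538) and 1373 to 2928 for P14 minus P2 (2447). Cyclic loess gave 240 higher and 213 lower genes for P14 minus P7 (382 and 156 as reported) and 1216 and 1318 for P14 minus P2 (1470 and 977). For P7 minus P2 there were 82 higher and 124 lower without P2 replicate 2 (41 and 32 as reported).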

Other observations

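A probe set shared by Aars, the cytosolic alanine enzyme, and the exosome gene Exosc6 was left out of all counts. Its log2 intensities were 5.22, 4.36 and 5.13 at P2, 5.11, 5.07 and 4.75 at P7, and 5.14, 5.42 and 5.31 at P14. As for most synthetases, P2 replicate 2 was the lowest P2 array. The signal of the 2 genes cannot be told apart there.

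Nars2, the mitochondrial asparagine enzyme, had a second probe set, with means of 3.63 ± 0.35 at P2, 3.59 ± 0.30 at P7 and 3.37 ± 0.03 at P14 (SD, n = 3). The brighter probe set, used in the report, had 4.07 ± 0.14, 3.90 ± 0.13 and 4.22 ± 0.25. The 2 probe sets thus had opposite signs between P14 and P2, and the dimmer one was near the background level of 3.23.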
